A study of Mus musculus with 31 samples.

Results

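The 10 genes described here are the D-type cyclins Ccnd1, Ccnd2 and Ccnd3, the E-type cyclins Ccne1 and Ccne2, the Cip/Kip inhibitors Cdkn1a (p21), Cdkn1b (p27) and Cdkn1c (p57), and the INK4 inhibitors Cdkn2a and Cdkn2b (p15). They were taken by symbol from the 3 deposited count tables, which hold 55487, 56980 and 56941 genes, and each symbol had 1 entry in each table. All samples were Panc02 cells, a murine pancreatic adenocarcinoma line, and RNA sequencing covered 31 samples. In the conditioned media table, WT spheroids in Matrigel received control medium (Ctrl), M0-CM from untreated bone marrow-derived macrophages or M1-CM from macrophages given IFNγ and LPS, with 3 samples each. In the table of 2D and 3D culture, WT and Cxcl5-/- cells were grown in 2D or as 3D spheroids in culture medium, again with 3 samples each. In the rescue table, WT (2 samples), Cxcl5-/- (2), Cxcl5-/- with overexpressed mutant Hif1a (Hif1a OE, 3) and Cxcl5-/- with overexpressed Myc (Myc OE, 3) were all grown in 3D. By the study's methods, the control medium, like the conditioned media, held less fetal bovine serum than the complete medium of the other spheroids. Cxcl5 was disrupted with a lentiviral CRISPR/Cas9 vector, and the study checked the knockout by immunoblot for CXCL5 protein, shown for 3D cells. A retroviral vector carried Myc or a stabilised mutant of Hif1a, and the study does not say whether the lines were clones or pools. For the rescue samples the labelled line name carries a number that runs on from sample to sample, while the study names Panc02.

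Cells pass from G1 to S phase when cyclin-dependent kinases phosphorylate the retinoblastoma protein and release E2F transcription factors. D-type cyclins activate Cdk4 and Cdk6 in response to growth signals, and E-type cyclins, themselves E2F targets, activate Cdk2. Cip/Kip proteins bind cyclin and kinase complexes, INK4 proteins bind Cdk4 and Cdk6 alone, and Cdkn1a is a classical target of p53. In pancreatic carcinoma the Cdkn2a locus is among the genes most often lost, and its second product, p19Arf, stabilises p53.

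Total counts ranged from 41542533 to 78498230 per sample. Levels are CPM, counts scaled by TMM to the effective library size within a table, so levels in different tables are on separate scales. Differences are log2 fold changes with their SE from the quasi-likelihood test of edgeR, with Benjamini-Hochberg adjustment over all genes tested, and a gene was called at an adjusted p under 0.05. The p-values measure the spread between these samples, since the labels do not say that they came from separate cultures. Cxcl5 RNA, which does not measure the protein, was higher than in WT in 1 group labelled Cxcl5-/-. Its level was 28.5, 24.5 and 28.0 CPM in WT 3D and 65.5, 40.9 and 45.5 CPM in the libraries labelled Cxcl5-/- 3D, a log2 difference of 0.91 ± 0.14 (SE, edgeR adjusted p = 0.000173), while it was -0.78 ± 0.14 for Cxcl5-/- against WT in the rescue table (adjusted p = 0.00107) and -0.47 ± 0.14 in 2D (adjusted p = 0.0705). Hif1a and Myc were lower in the libraries labelled Cxcl5-/- 3D than in WT (-1.21 ± 0.10 and -1.75 ± 0.12) and in rescue Cxcl5-/- than in WT (-1.18 ± 0.11 and -1.17 ± 0.15). Myc rose by 4.54 ± 0.16 in Myc OE over Cxcl5-/-, and Hif1a rose by 0.94 ± 0.10 in Hif1a OE and by 0.90 ± 0.10 in Myc OE, with -0.24 ± 0.10 for Hif1a in Hif1a OE against WT (adjusted p = 0.0999). Of the epithelial markers, Krt8, Krt18 and Sox9 had counts in all 31 samples, while Epcam was at 0 in 29 and Cdh1 in 26. The 7 epithelial markers summed to 853 to 1097 CPM in WT 3D and 217 to 236 CPM in the libraries labelled Cxcl5-/- 3D, and to 856 to 903 CPM in rescue WT, 287 to 302 in Cxcl5-/-, 705 to 837 in Hif1a OE and 267 to 312 in Myc OE. Of 7 genes usually listed for fibroblasts, Col3a1, Pdgfra, Pdgfrb and Col1a1 had counts in all 31 samples. Thy1 was at 0 in 16, Lum in 4 and Dcn in 3. The 7 genes summed to 633 to 688 CPM in WT 3D and 1212 to 1314 CPM in the libraries labelled Cxcl5-/- 3D. In the rescue table they summed to 291 to 310 CPM in WT, 1487 to 1520 in Cxcl5-/-, 625 to 735 in Hif1a OE and 601 to 688 in Myc OE. The Ctrl spheroids of the conditioned media table, also WT, had 276 to 475 CPM of the epithelial list and 1567 to 1951 CPM of the fibroblast list. The part of both lists in the differences below was not tested, and a change in RNA per cell cannot be told apart from a change in the share of cells that express a gene.

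On GRCm38, the D-type cyclins lie at chr7:144929931-144939925 (Ccnd1, ENSMUSG00000070348), chr6:127125162-127152193 (Ccnd2, ENSMUSG00000000184) and chr17:47505051-47599691 (Ccnd3, ENSMUSG00000034165), and the E-type cyclins at chr7:38097984-38107534 (Ccne1, ENSMUSG00000002068) and chr4:11191351-11204779 (Ccne2, ENSMUSG00000028212). The Cip/Kip genes lie at chr17:29090976-29100727 (Cdkn1a, ENSMUSG00000023067), chr6:134920401-134925513 (Cdkn1b, ENSMUSG00000003031) and chr7:143458339-143461050 (Cdkn1c, ENSMUSG00000037664). Cdkn2a (chr4:89274471-89294653, ENSMUSG00000044303) and Cdkn2b (chr4:89306299-89311039, ENSMUSG00000073802) are neighbours.

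Ordered by level per kilobase of merged exons, Ccnd1 led the 10 genes in WT 3D at 84.2 ± 11.6 CPM per kb (SD, n = 3), followed by Cdkn1b at 34.7 ± 4.16 and Cdkn1a at 19.1 ± 0.488. Ccne2 at 15.2 ± 1.68 and Ccnd2 at 8.16 ± 0.870 came next. Ccne1 at 5.84 ± 0.581 and Ccnd3 at 5.19 ± 0.868 did not differ beyond their spread. The 2 INK4 genes were lowest of those with counts, Cdkn2b at 1.25 ± 0.239 and Cdkn2a at 0.318 ± 0.129 CPM per kb. The order was not the same in rescue Cxcl5-/-, where Ccnd2 reached 24.8 ± 0.0954 CPM per kb beside 25.7 ± 1.07 for Ccnd1 (SD, n = 2), and Cdkn1a stood at 3.97 ± 0.286.

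The promoters of Cdkn1a, Cdkn1b and Ccne1 are shown because the results on these genes are described most fully among the 6 members with an entry in the RefSeq table of promoters (build GRCm38.p6), and for Cdkn1a the downstream of 2 start sites is shown. Each line gives the 250 bases before a start site, 5′ to 3′ on the gene's strand, and capitals mark matches on either strand to ACGTG or GCGTG (the core bound by HIF), GGGCGG (GC box), TATAA, TTTNNCGC (E2F) or CACGTG (E-box, which contains ACGTG). The windows are chr17:29093519-29093768 (plus strand), chr6:134920151-134920400 (plus strand) and chr7:38107491-38107740 (minus strand).
Cdkn1a: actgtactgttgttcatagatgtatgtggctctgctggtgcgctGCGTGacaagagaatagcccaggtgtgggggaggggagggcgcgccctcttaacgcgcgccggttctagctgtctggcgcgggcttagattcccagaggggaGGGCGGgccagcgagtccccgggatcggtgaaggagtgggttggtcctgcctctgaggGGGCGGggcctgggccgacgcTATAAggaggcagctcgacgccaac
Cdkn1b: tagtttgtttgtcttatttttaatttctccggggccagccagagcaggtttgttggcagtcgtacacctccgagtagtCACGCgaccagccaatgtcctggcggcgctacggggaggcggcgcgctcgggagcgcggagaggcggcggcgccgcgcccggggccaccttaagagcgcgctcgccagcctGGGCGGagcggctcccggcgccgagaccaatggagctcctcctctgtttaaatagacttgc
Ccne1: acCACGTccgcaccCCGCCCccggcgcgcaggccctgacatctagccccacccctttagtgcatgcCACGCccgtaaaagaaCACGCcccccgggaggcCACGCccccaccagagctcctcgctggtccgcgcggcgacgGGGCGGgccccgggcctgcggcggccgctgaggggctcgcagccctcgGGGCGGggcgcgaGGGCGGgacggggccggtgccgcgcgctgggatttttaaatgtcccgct

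The Cdkn1a window holds 2 GC boxes, 1 HIF core and TATAA with its first base 25 before the start site. Ccne1 holds 4 HIF cores and 4 GC boxes, and Cdkn1b holds 1 of each. Over 32851 promoter windows of the same length, 38.6% hold a HIF core, 32.7% a GC box, 22.8% TATAA, 6.02% CACGTG and 4.28% TTTNNCGC. No match to TTTNNCGC or CACGTG lies in these 3 windows, and no binding was measured in these samples.

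Cdkn1a, which halts the cycle when p53 or other signals raise it, had the largest called difference of the 10 genes between genotypes in 3D, and it was high in WT 3D spheroids alone within its table. Its level was 9.19, 11.7 and 9.82 CPM in WT 2D, 12.1, 11.9 and 10.8 CPM in Cxcl5-/- 2D, 69.7, 67.4 and 66.4 CPM in WT 3D, and 1.06, 4.99 and 5.73 CPM in the libraries labelled Cxcl5-/- 3D. No value of WT 3D overlapped another group, and the libraries labelled Cxcl5-/- 3D lay below both 2D groups. Against WT 2D, Cdkn1a rose by 2.72 ± 0.37 (SE) on the log2 scale in WT 3D (edgeR adjusted p = 3.79e-05), a fold of 6.61. In the libraries labelled Cxcl5-/- it fell by 1.56 ± 0.37 from 2D to 3D (adjusted p = 0.00256) and stood 17.3-fold below WT in 3D (log2 fold change -4.11 ± 0.40, adjusted p = 2.24e-06). The size of this fold leans on replicate 1 of Cxcl5-/- 3D, with 67 counts against 288 and 375. With single samples left out the log2 fold change ran from -4.52 to -3.69. In 2D the genotypes differed by 0.18 ± 0.35 (adjusted p = 0.888), and the difference between the genotype effects, 3D minus 2D, was -4.29 ± 0.52 (adjusted p = 6.13e-05). The ratio of Ccnd1 to Cdkn1a CPM within a sample does not depend on library scaling. It was 5.11 to 6.50 in WT 3D and 30.8 to 155 in the libraries labelled Cxcl5-/- 3D. The Ctrl spheroids of the conditioned media table, also WT but in medium with less serum, had ratios of 25.2, 218 and 30.0. The low ratio of WT 3D was thus not found in every set of WT spheroids. A ratio does not tell which of the 2 genes differed. The cause was not tested.

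**Figure D1:**
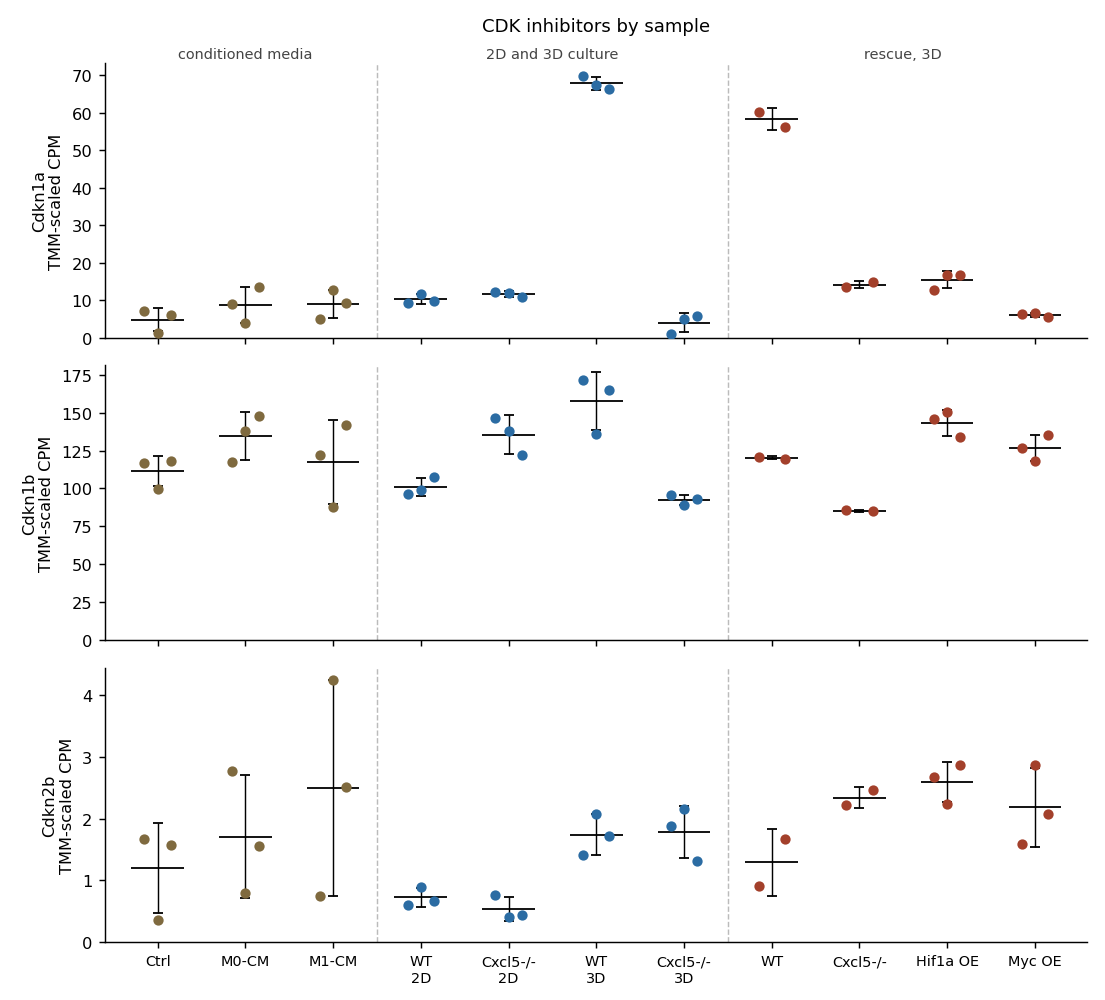
TMM-scaled CPM (linear axes from 0) of the inhibitors Cdkn1a, Cdkn1b and Cdkn2b in each of 31 samples by group; points are samples, horizontal lines means and error bars SDs, and dashed lines part the 3 tables, which were scaled separately. Cdkn1a stood at 66.4 to 69.7 CPM in WT 3D and at 56.2 to 60.3 CPM in rescue WT, above every other group of its table.

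Among the rescue samples, Cdkn1a was at 60.3 and 56.2 CPM in WT, 13.4 and 14.8 in Cxcl5-/-, 12.8, 16.7 and 16.7 in Hif1a OE, and 6.24, 6.59 and 5.46 in Myc OE. WT lay apart from the other groups, and Myc OE lay below all of them. The log2 fold change of Cxcl5-/- against WT was -2.05 ± 0.15 (edgeR adjusted p = 1.76e-06). Hif1a OE did not differ from Cxcl5-/- past the threshold (0.13 ± 0.13, adjusted p = 0.497), and in Myc OE it was 2.32-fold lower than in Cxcl5-/- (-1.21 ± 0.13, adjusted p = 2.64e-05). The log2 fold change of Myc OE against Hif1a OE was -1.34 ± 0.12 (adjusted p = 1.99e-05). Against WT, Cdkn1a remained 3.78-fold lower in Hif1a OE (adjusted p = 5.48e-06) and 9.56-fold lower in Myc OE (adjusted p = 7.21e-08). These last 2 comparisons were added after the data were seen.

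Cdkn1b, which restrains cyclin E and Cdk2 in resting cells, followed Cdkn1a in direction in WT 3D and in both sets of spheroids labelled Cxcl5-/-, with smaller differences, but not under overexpression. It was at 96.2, 98.9 and 108 CPM in WT 2D, 147, 138 and 122 in Cxcl5-/- 2D, 172, 136 and 165 in WT 3D, and 95.7, 89.2 and 92.8 in the libraries labelled Cxcl5-/- 3D. The 2D and 3D groups of WT did not overlap, nor did those labelled Cxcl5-/-, and the 2 labelled genotypes moved in opposite directions. It rose by 0.64 ± 0.10 in WT 3D (edgeR adjusted p = 0.000133) and fell by 0.55 ± 0.10 from 2D to 3D in the libraries labelled Cxcl5-/- (adjusted p = 0.000354). The genotypes differed by -0.77 ± 0.10 in 3D (adjusted p = 3.44e-05), and by 0.43 ± 0.10 in 2D (adjusted p = 0.0187), a call that leaving out any of 4 single 2D samples ended (adjusted p = 0.0572 to 0.0841). The difference between the genotype effects was -1.20 ± 0.14 (adjusted p = 5.15e-05).

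Rescue samples had Cdkn1b at 121 and 120 CPM in WT, 85.6 and 84.8 in Cxcl5-/-, 146, 150 and 134 in Hif1a OE, and 126, 118 and 136 in Myc OE. Cxcl5-/- was the lowest group with no overlap. It fell by 0.50 ± 0.09 against WT (edgeR adjusted p = 0.00130), and rose by 0.75 ± 0.09 in Hif1a OE (adjusted p = 4.08e-05) and by 0.57 ± 0.08 in Myc OE (adjusted p = 0.000222). The call in Myc OE did not hold with library totals in place of TMM (0.24, adjusted p = 0.0680). Hif1a OE was above WT by 0.25 ± 0.08 (adjusted p = 0.0486), a call that most other settings did not give, and Myc OE differed from WT by 0.08 ± 0.08 (adjusted p = 0.513).

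Cdkn2b, an INK4 inhibitor known as a target of TGF-β, was low but rose in 3D in WT and in the libraries labelled Cxcl5-/-. Counts were 31, 62 and 48 in WT 2D and 51, 25 and 28 in Cxcl5-/- 2D, against 73, 89 and 93 in WT 3D and 119, 124 and 86 in the libraries labelled Cxcl5-/- 3D. Neither pair of groups overlapped between 2D and 3D. The log2 fold change in 3D was 1.26 ± 0.31 in WT (edgeR adjusted p = 0.00414) and 1.74 ± 0.31 in the libraries labelled Cxcl5-/- (adjusted p = 0.000317), and the difference between genotypes in 3D was 0.04 ± 0.30 (adjusted p = 0.932). The rescue samples had 0.905 and 1.67 CPM in WT, 2.22 and 2.46 in Cxcl5-/-, 2.24 to 2.87 in Hif1a OE and 1.59 to 2.87 in Myc OE, and no comparison passed the threshold.

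Cdkn2a, whose locus encodes both p16Ink4a and p19Arf, had at most 40 counts in any sample. It was at 0 counts in 3 of 3 Cxcl5-/- 2D samples, where a count of 0 allows up to 3 counts per sample, and at 0, 11 and 11 counts in WT 2D. WT 3D had 27, 16 and 12 counts and the libraries labelled Cxcl5-/- 3D had 15, 0 and 0. The rescue samples had 8 and 26 counts in WT, 16 and 9 in Cxcl5-/-, 18, 21 and 18 in Hif1a OE and 4, 11 and 16 in Myc OE. The gene passed the filter on low counts in each table and was called in no comparison. Within 1 Mb of Cdkn2a and Cdkn2b on chromosome 4, Klhl9 had at least 6425 and Focad at least 1079 counts in every sample, Mtap, next to Cdkn2a, had 76 to 487 counts, and the Ifna genes with a number in their name had at most 13 counts. Cdkn1c, the third Cip/Kip gene, was at 0 counts in 30 of 31 samples and at 5 counts in 1 Myc OE sample, and was not tested.

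Ccnd1, the D-type cyclin most often raised in carcinoma, was low in both sets of spheroids labelled Cxcl5-/-. Its level was 473, 427 and 491 CPM in WT 2D, 433, 442 and 405 in Cxcl5-/- 2D, 454, 344 and 391 in WT 3D, and 164, 161 and 176 in the libraries labelled Cxcl5-/- 3D. The last group stood below all 9 other samples, while WT 2D and WT 3D overlapped. In 3D the genotypes differed by -1.25 ± 0.10 (edgeR adjusted p = 4.66e-07), a 2.37-fold lower level. From 2D to 3D it changed by -0.23 ± 0.10 in WT (adjusted p = 0.0842) and by -1.35 ± 0.10 in the libraries labelled Cxcl5-/- (adjusted p = 1.10e-07), and the difference between the genotype effects was -1.13 ± 0.14 (adjusted p = 8.21e-05).

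**Figure D2:**
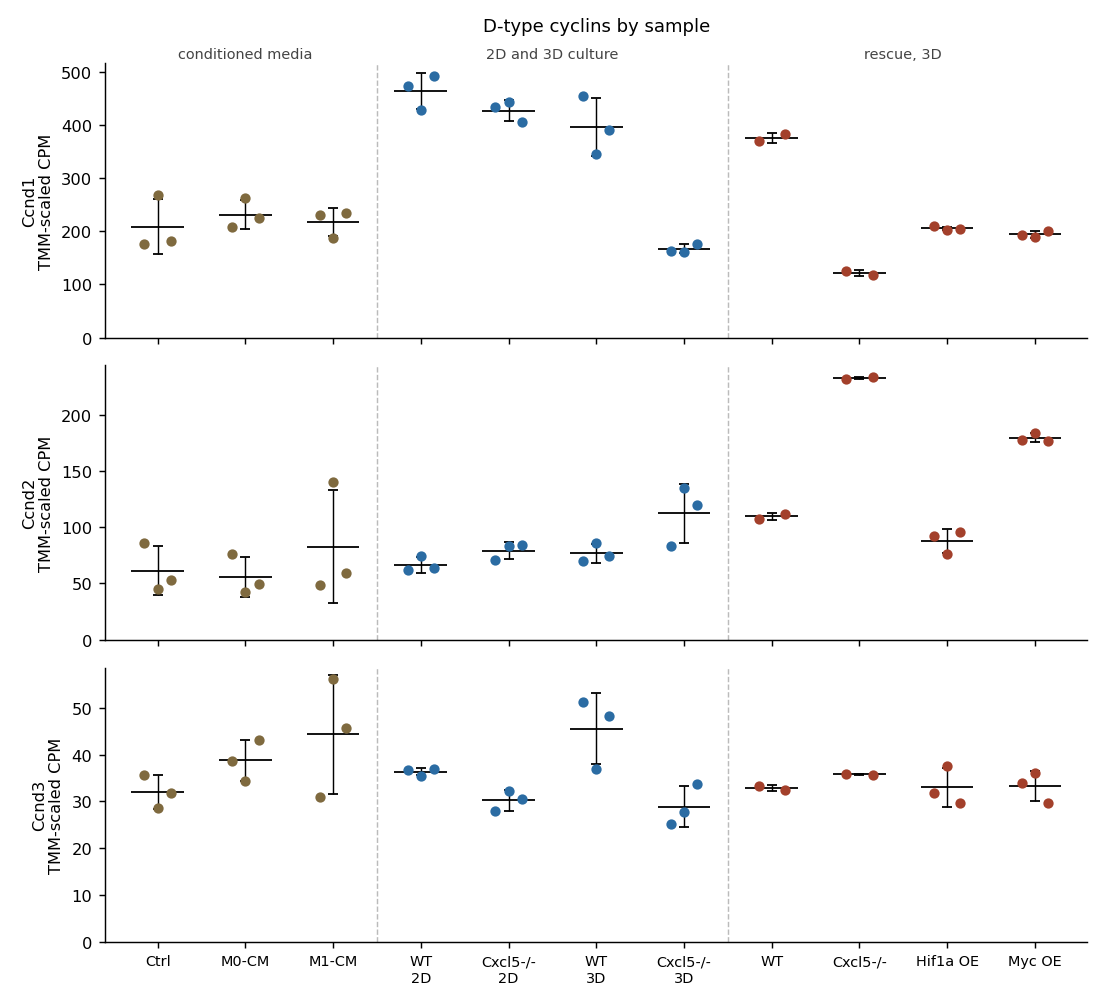
TMM-scaled CPM (linear axes from 0) of Ccnd1, Ccnd2 and Ccnd3 in each of 31 samples by group; points are samples, horizontal lines means and error bars SDs, and dashed lines part the 3 tables. In rescue Cxcl5-/- spheroids Ccnd1 stood at 118 to 125 CPM, below all other groups of the table, and Ccnd2 at 232 to 234 CPM, above all of them.

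Ccnd1 in the rescue samples was at 369 and 383 CPM in WT, 125 and 118 in Cxcl5-/-, 209, 203 and 203 in Hif1a OE, and 194, 188 and 201 in Myc OE. No groups overlapped, and both overexpressing lines lay between Cxcl5-/- and WT. It fell 3.10-fold in Cxcl5-/- (log2 -1.63 ± 0.08, edgeR adjusted p = 1.65e-07) and rose 1.69-fold over Cxcl5-/- in Hif1a OE (adjusted p = 1.61e-05) and 1.60-fold in Myc OE (adjusted p = 2.42e-05). Both lines stayed below WT, with a log2 fold change of -0.87 ± 0.07 in Hif1a OE (adjusted p = 1.96e-05) and -0.95 ± 0.07 in Myc OE (adjusted p = 3.89e-06). Myc OE against Hif1a OE gave -0.08 ± 0.07 (adjusted p = 0.481).

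Ccnd2, which binds the same kinases, moved the other way to Ccnd1 in the libraries labelled Cxcl5-/- 3D and in rescue Cxcl5-/-. It was at 69.9, 85.8 and 74.5 CPM in WT 3D and 83.5, 135 and 119 in the libraries labelled Cxcl5-/- 3D, which overlapped in 1 sample (0.55 ± 0.15, edgeR adjusted p = 0.00863). From 2D to 3D, Ccnd2 changed by 0.21 ± 0.15 in WT (adjusted p = 0.292). In the libraries labelled Cxcl5-/- it rose by 0.51 ± 0.15 (adjusted p = 0.0107), with overlap of the groups. Among the rescue samples it was at 108 and 111 CPM in WT, 232 and 234 in Cxcl5-/-, 92.6, 76.0 and 95.5 in Hif1a OE, and 178, 184 and 177 in Myc OE. Hif1a OE was thus the lowest group and Cxcl5-/- the highest, with no overlap. The log2 fold change was 1.09 ± 0.11 in Cxcl5-/- against WT (adjusted p = 1.53e-05), -1.40 ± 0.10 in Hif1a OE against Cxcl5-/- (adjusted p = 1.34e-06) and 1.03 ± 0.09 in Myc OE against Hif1a OE (adjusted p = 1.06e-05). Against WT it was 0.71 ± 0.10 in Myc OE (adjusted p = 0.000298). In Hif1a OE against WT it was -0.32 ± 0.10 (adjusted p = 0.0372), a call that several other settings did not give. Myc OE against Cxcl5-/- gave -0.37 ± 0.10 (adjusted p = 0.00867), a call that was lost without either Cxcl5-/- sample (adjusted p = 0.0675 and 0.0683).

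The ratio of Ccnd1 to Ccnd2 CPM within a sample ran from 4.01 to 6.49 in WT 3D and from 1.20 to 1.96 in the libraries labelled Cxcl5-/- 3D. In the rescue table it was 3.43 and 3.44 in WT, 0.504 to 0.537 in Cxcl5-/-, 2.13 to 2.67 in Hif1a OE and 1.02 to 1.13 in Myc OE. In 2D it was 5.75 to 7.76 in WT and 4.82 to 6.15 in Cxcl5-/-, with overlap. The conditioned media spheroids, all WT, had 2.04 to 5.91 in Ctrl, 2.74 to 6.22 with M0-CM and 1.34 to 4.76 with M1-CM. These ratios do not depend on the scaling of a library.

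Ccnd3, the third D-type cyclin, was at 51.4, 36.9 and 48.4 CPM in WT 3D and at 25.2, 27.7 and 33.8 in the libraries labelled Cxcl5-/- 3D. The groups did not overlap (log2 -0.66 ± 0.13, edgeR adjusted p = 0.000913), but the call was lost with library totals in place of TMM (-0.25, adjusted p = 0.156). All 10 rescue samples lay between 29.6 and 37.7 CPM and no comparison passed the threshold, with 0.12 ± 0.13 for Cxcl5-/- against WT (adjusted p = 0.452).

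Ccne1 and Ccne2, the partners of Cdk2, fell from 2D to 3D in WT and in the libraries labelled Cxcl5-/-. Ccne1 was at 32.2, 30.2 and 33.2 CPM in WT 2D, 32.9, 31.4 and 33.8 in Cxcl5-/- 2D, 16.7, 13.8 and 16.2 in WT 3D, and 12.6, 12.1 and 13.2 in the libraries labelled Cxcl5-/- 3D. Ccne2 was at 81.1, 90.0 and 83.9 CPM in WT 2D, 95.4, 86.6 and 82.6 in Cxcl5-/- 2D, 46.4, 56.0 and 57.1 in WT 3D, and 31.0, 24.2 and 24.6 in the libraries labelled Cxcl5-/- 3D. For both genes every 3D sample lay below every 2D sample, and the libraries labelled Cxcl5-/- lay below WT in 3D.

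The fall of Ccne1 from 2D to 3D was -1.03 ± 0.09 in WT (edgeR adjusted p = 7.84e-07) and -1.37 ± 0.09 in the libraries labelled Cxcl5-/- (adjusted p = 3.76e-08), and for this gene the difference between the genotype effects did not pass the threshold (-0.34 ± 0.13, adjusted p = 0.0684). The fall of Ccne2 was -0.68 ± 0.11 in WT (adjusted p = 0.000170) and -1.73 ± 0.11 in the libraries labelled Cxcl5-/- (adjusted p = 2.50e-08), and its genotype effects differed by -1.05 ± 0.15 (adjusted p = 0.000256). Between genotypes in 3D, Ccne2 was lower in the libraries labelled Cxcl5-/- (-1.0 ± 0.11, adjusted p = 7.31e-06). Ccne1 differed by -0.30 ± 0.09 (adjusted p = 0.0168), a call that turned to 0.09 with library totals in place of TMM (adjusted p = 0.464) and was lost without Cxcl5-/- 3D replicate 2 (adjusted p = 0.111), Cxcl5-/- 2D replicate 1 (0.0727) or replicate 3 (0.0560). For Ccne1 the call was also lost without the filter on low counts (0.203), with at least 10 counts required in every sample (0.0791) and with only the groups compared in the fit (0.0982).

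**Figure D3:**
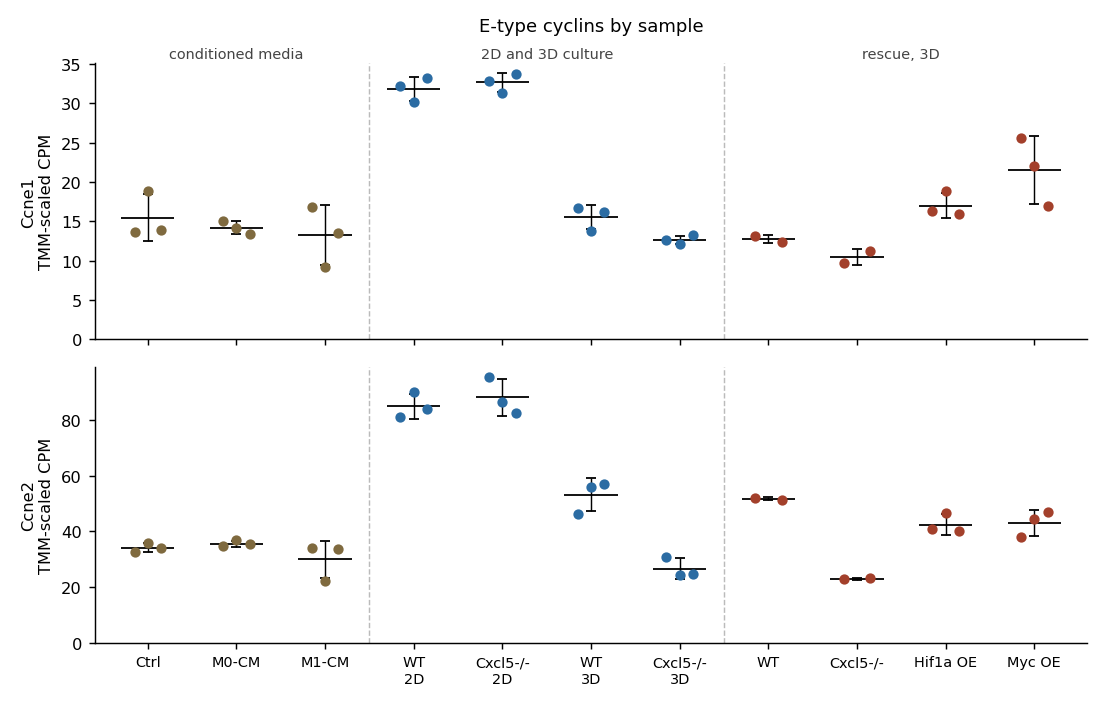
TMM-scaled CPM (linear axes from 0) of Ccne1 and Ccne2 in each of 31 samples by group; points are samples, horizontal lines means and error bars SDs, and dashed lines part the 3 tables. Within the table of 2D and 3D culture, Ccne1 stood at 30.2 to 33.8 CPM in 2D and at 12.1 to 16.7 CPM in 3D, and Ccne2 at 81.1 to 95.4 and 24.2 to 57.1 CPM.

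Ccne2 in the rescue samples was at 52.1 and 51.3 CPM in WT, 22.8 and 23.1 in Cxcl5-/-, 40.7, 46.7 and 40.0 in Hif1a OE, and 37.9, 44.5 and 47.0 in Myc OE. Cxcl5-/- was lowest and WT highest, with the 2 overexpressing lines between them. It fell by 1.17 ± 0.12 in Cxcl5-/- (edgeR adjusted p = 1.72e-05) and rose by 0.89 ± 0.11 in Hif1a OE (adjusted p = 6.87e-05) and 0.91 ± 0.11 in Myc OE (adjusted p = 4.47e-05), where its difference from WT no longer passed the threshold (-0.28 ± 0.10 and -0.26 ± 0.10, adjusted p = 0.0694 and 0.0798). Ccne1 was at 13.1 and 12.4 CPM in WT, 9.73 and 11.2 in Cxcl5-/-, 16.3, 18.8 and 15.9 in Hif1a OE, and 25.6, 22 and 17.0 in Myc OE. Both overexpressing lines lay above WT and Cxcl5-/- for this gene. Ccne1 differed by -0.28 ± 0.18 between Cxcl5-/- and WT (adjusted p = 0.212). It rose by 0.70 ± 0.16 in Hif1a OE (adjusted p = 0.00580, or 0.0629 without Cxcl5-/- replicate 1) and by 1.04 ± 0.17 in Myc OE (adjusted p = 0.000383), which was above WT by 0.76 ± 0.16 (adjusted p = 0.00508).

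Counted over the 9 members tested, 3D culture of WT cells came with 3 higher and 2 lower, against 44.3% of 21367 genes called in either direction (22.2% higher and 22% lower). From 2D to 3D, the libraries labelled Cxcl5-/- had 2 higher and 5 lower (57% of all genes, 28.7% higher and 28.2% lower). The genotypes differed in 2D in 1 member, which was higher (7.03% of all genes, 3.86% higher and 3.17% lower). In 3D, 1 member was higher and 6 were lower in the libraries labelled Cxcl5-/- (45% of all genes, 19.7% higher and 25.3% lower). The difference between the genotype effects was called for 4, all lower (27.2%, 11.1% higher and 16.1% lower). The rescue comparisons called 1 higher and 4 lower in Cxcl5-/- against WT (41.9% of 28730 genes, 17.6% higher and 24.3% lower). Against Cxcl5-/-, 4 were higher and 1 lower in Hif1a OE (35.5%, 20.5% higher and 15% lower), and 4 higher and 2 lower in Myc OE (39.6%, 21.6% higher and 18% lower). Myc OE had 1 higher and 1 lower than Hif1a OE (19.3%, 9.54% higher and 9.73% lower). Against WT, 1 was higher and 3 lower in Hif1a OE (24.2%, 13.9% higher and 10.3% lower), and 2 were higher and 2 lower in Myc OE (31.8%, 17.1% higher and 14.7% lower). Since rescue Cxcl5-/- and WT each serve in several comparisons, these counts share samples.

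**Figure D4:**
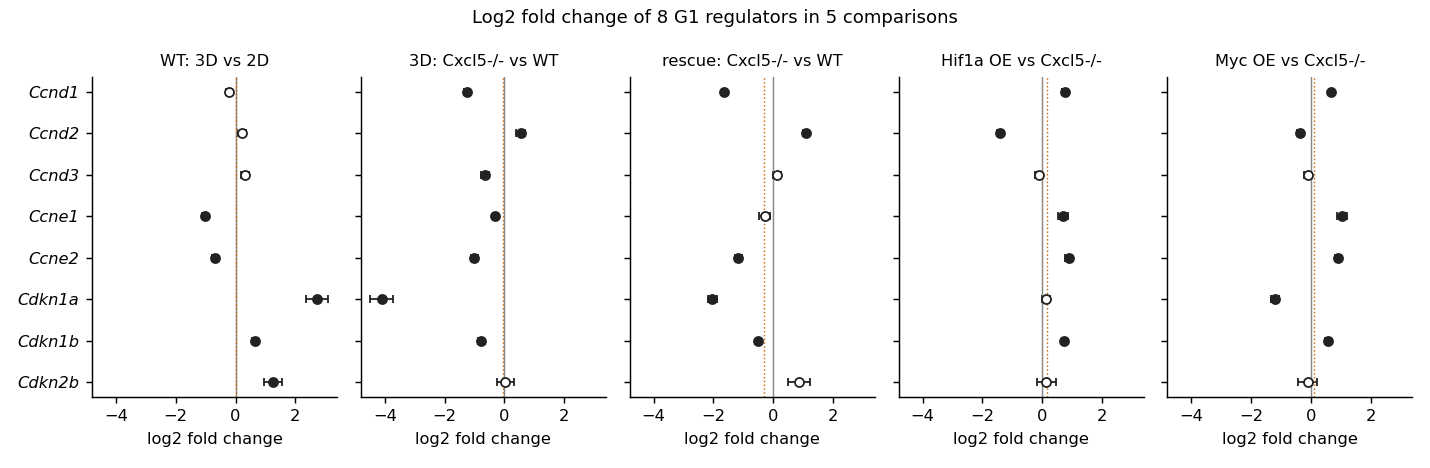
Log2 fold change (x axis) of 8 members in 5 comparisons, with SE as error bars; filled points passed an adjusted p of 0.05 and open points did not, grey lines mark 0 and dotted lines the median of all genes tested. Ccnd1 and Ccne2 lay at -1.25 and -1.0 in the libraries labelled Cxcl5-/- 3D against WT and at 0.76 and 0.89 in Hif1a OE against Cxcl5-/-, while Cdkn1a lay at -4.11 and 0.13.

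Scaling bears on the smaller of these values. With library totals in place of TMM the median of all genes moved from -0.04 to 0.35 for the libraries labelled Cxcl5-/- 3D against WT, and the share of higher genes among the calls from 43.9% to 75.8%. For WT 3D against 2D that share moved from 50.2% to 34.7%, and for the difference between genotype effects from 40.9% to 77.1%. For the rescue samples it moved from 57.8% to 43.6% for Hif1a OE and from 54.6% to 36.3% for Myc OE against Cxcl5-/-, from 49.5% to 36.1% between them, and against WT from 57.5% to 38.1% and from 53.7% to 28.5% (40.5% and 42.2% with DESeq2 size factors). Of the 50 called differences of the members, 4 were no longer called in the same direction with library totals, those of Ccnd3 and Ccne1 between genotypes in 3D and of Cdkn1b in Myc OE against Cxcl5-/- and in Hif1a OE against WT.

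None of the 9 members tested was called in the conditioned media comparisons, where edgeR called 3 of 19207 genes for M1-CM against Ctrl (0.0156%), 0 for M0-CM against Ctrl (0%) and 3 for M1-CM against M0-CM (0.0156%). No member had an unadjusted p under 0.05 and DESeq2 called 0 of them in each comparison. Single samples differed widely. Cdkn1a was at 6.99, 1.23 and 6.06 CPM in Ctrl, 8.83, 3.77 and 13.5 with M0-CM, and 5.01, 12.6 and 9.32 with M1-CM (0.92 ± 0.63 for M1-CM against Ctrl, edgeR adjusted p = 0.965). Ccnd1 was at 176, 269 and 182 CPM in Ctrl and Ccnd2 at 48.3, 140 and 59.3 CPM with M1-CM. Ctrl replicate 2 had the lowest Cdkn1a, Cdkn1b and Cdkn2b and the highest Ccnd1 and Ccne1 of its group, and M1-CM replicate 2 had the highest Cdkn1a, Ccnd2, Ccnd3 and Cdkn2b and the lowest Ccnd1, Ccne1, Ccne2 and Cdkn1b of its group. The common biological coefficient of variation was 0.457 in this table, against 0.192 in the table of 2D and 3D culture and 0.240 in the rescue table.

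Genes that act with the members were counted from 3 lists of textbook knowledge, and calls of a list are read beside the shares over all genes given above. Of 14 E2F targets, which are transcribed at the G1 to S step, 14 fell in WT 3D against 2D (median log2 fold change -1.10, against 0.00 over all genes), 13 fell in the libraries labelled Cxcl5-/- 3D against WT (median -0.995, or -0.61 with library totals, all genes -0.04) and 14 fell in rescue Cxcl5-/- against WT (median -1.26, all genes -0.30). All 14 rose in Hif1a OE (median 1.21, all genes 0.16) and in Myc OE (median 1.46, all genes 0.11). Ccna2, the S phase cyclin, fell by 1.52 ± 0.07 in the libraries labelled Cxcl5-/- 3D (edgeR adjusted p = 4.73e-09), and Mcm5, a subunit of the replicative helicase, rose by 2.12 ± 0.09 in Myc OE (adjusted p = 5.00e-08). Against WT, 3 E2F targets were higher and 2 lower in Hif1a OE, and 3 were higher and 1 lower in Myc OE.

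Of 23 G1 partners, which comprise kinases, further inhibitors, pocket proteins, E2F factors and degradation factors, 2 rose and 15 fell in WT 3D against 2D (median -0.40, or -0.62 with library totals). Rb1, which encodes the retinoblastoma protein, rose by 0.98 ± 0.10 (edgeR adjusted p = 3.37e-06), and Cdc25a, a phosphatase that activates Cdk2, fell by 1.01 ± 0.13 (adjusted p = 1.99e-05). In the libraries labelled Cxcl5-/- 3D against WT, 3 were higher and 13 lower, with a median of -0.30 that turned to 0.08 with library totals. Cks1b, needed for the destruction of Cdkn1b, had the largest fall (-1.69 ± 0.15, adjusted p = 9.28e-07), followed by the INK4 gene Cdkn2d (-1.01 ± 0.10, adjusted p = 4.08e-06). In rescue Cxcl5-/- against WT 4 were higher and 8 lower, and the median of -0.21 was not below that of all genes (-0.30). Cks1b and Cdkn2d were again lowest (-1.59 ± 0.19 and -1.45 ± 0.20) and Rbl2, a pocket protein, highest (1.03 ± 0.11). Over Cxcl5-/-, 11 rose and 5 fell in Hif1a OE and 14 rose and 3 fell in Myc OE. The medians were 0.28 in Hif1a OE (all genes 0.16) and 0.36 in Myc OE (all genes 0.11). With library totals they were 0.05 and 0.03 (all genes 0 and -0.11). Cks1b rose by 2.25 ± 0.19 and 2.01 ± 0.18 in these lines, and the INK4 gene Cdkn2c was 1.03 ± 0.10 higher in Myc OE than in Hif1a OE (adjusted p = 3.50e-05).

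Of 20 p53 targets other than Cdkn1a, 18 were tested in the table of 2D and 3D culture. In WT 3D against 2D, 9 rose and 4 fell (median 0.37, or 0.15 with library totals in place of TMM), and Trp53inp1 rose most (1.33 ± 0.11, edgeR adjusted p = 3.30e-07). In the libraries labelled Cxcl5-/- 3D against WT, 2 were higher and 15 lower (median -0.82, or -0.43 with library totals), with Gdf15, a secreted stress factor, at -1.97 ± 0.17 (adjusted p = 7.01e-07). Fas, the death receptor, moved the other way (2.15 ± 0.12, adjusted p = 1.19e-08). In 2D, 6 of the 18 were higher in Cxcl5-/- and 1 was lower. In the rescue samples, 19 were tested. One of them, Pmaip1, was at 0 counts in Cxcl5-/- and Myc OE and enters no median here. Of the 19, 6 were higher and 11 lower in Cxcl5-/- against WT (median -0.41 over the other 18), 6 rose and 6 fell in Hif1a OE, and 7 rose and 7 fell in Myc OE. In Myc OE against WT, 4 were higher and 8 lower, and the 8 include Pmaip1 with its 0 counts in Myc OE. Plk2, a stress kinase, stood at -1.98 ± 0.10 in that comparison (edgeR adjusted p = 1.99e-07), while Fas stood at 2.12 ± 0.10 (adjusted p = 1.61e-07) and Sesn1, a stress-induced sestrin, at 1.99 ± 0.12 (adjusted p = 1.01e-06). In the conditioned media comparisons 0 genes of these lists were called by edgeR, and at an unadjusted p under 0.05 there were 1 p53 target for M1-CM against Ctrl (903 of all 19207 genes), 0 genes for M0-CM against Ctrl (569 of all genes), and 3 p53 targets and 1 G1 partner for M1-CM against M0-CM (498 of all genes).

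**Figure D5:**
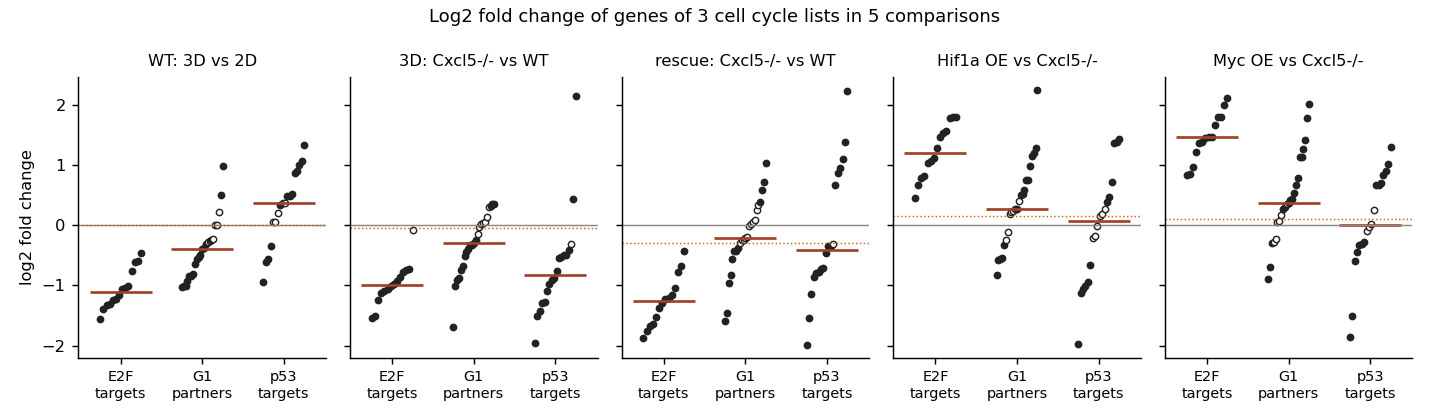
Log2 fold change (y axis) of single genes of the E2F target, G1 partner and p53 target lists in 5 comparisons; filled points passed an adjusted p of 0.05, red bars are list medians, grey lines mark 0 and dotted lines the median of all genes tested. Every E2F target lay below 0 in the 3 left panels and above 0 in both overexpressing lines; Pmaip1 is left out of the rescue panels because it had 0 counts in Cxcl5-/-.

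Reads of a member and of a gene on the other strand could not be told apart if counting ignored strand, which is not stated in the sources used here. Annotated genes on the opposite strand cover 30.7% of the exon bases of Cdkn1c (Gm44732), 23.4% of Ccnd1 (LTO1), 17.4% of Ccne2 (Ints8), 7.68% of Cdkn1a (AC167363.2) and 4.11% of Ccnd3 (Bysl). For Ccnd2, Gm43126 covers 3.95% and 9330179D12Rik 3.91%. The latter changed by 0.78 in rescue Cxcl5-/- against WT (edgeR adjusted p = 0.365) and by 1.92 in Myc OE against Cxcl5-/- (adjusted p = 0.022). AC167363.2 moved in the same direction as Cdkn1a, by 2.49 in WT 3D against 2D (edgeR adjusted p = 0.000105) and by -2.82 in the libraries labelled Cxcl5-/- 3D against WT (adjusted p = 5.27e-05), and in the rescue table it differed by -1.13 between Cxcl5-/- and WT (adjusted p = 0.191). Whether Cdkn1a and this gene share reads was not tested. In the libraries labelled Cxcl5-/- 3D against WT, LTO1 changed by -0.08 (edgeR adjusted p = 0.642) and Ints8 by 0.24 (adjusted p = 0.0254), against -1.25 for Ccnd1 and -1.0 for Ccne2.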

How the data were processed

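The authors prepared stranded total RNA libraries (TruSeq), sequenced read pairs on a NovaSeq, aligned them to GRCm38 with HISAT2 and deposited StringTie gene counts without normalization; the annotation release and the strand setting of counting are not given in the sources used here. The members and gene lists were chosen with earlier results of these data known. Samples were grouped by their labels and 0 columns of values were left out. Each table was fitted in R 4.3.3 with edgeR 4.0.16 (quasi-likelihood test, TMM), holding all groups of the table and no replicate block, after low genes were removed by the group-wise edgeR filter, with Benjamini-Hochberg adjustment over all genes tested (limit 0.05). The SE is the log2 fold change divided by the square root of F. Calls of the members were counted in every comparison, and values are given for part of the comparisons of each member. From each list the text names part of the up to 2 genes in each direction with the largest change past the limit, and for each member the gene most alike over the 12 samples of 2D and 3D culture out of those averaging 50 counts or more. Fitted folds are not given where every library of a group had 3 counts or fewer. Depth was 41542533 to 78498230 counts per sample. Alternatives were DESeq2 1.42.0 (the test the authors used), its size factors, library totals, other filters (a minimum of 10 counts), only the groups compared, the replicate block, each sample left out, entries summed by symbol and a fold limit. Hif1a OE and Myc OE against WT were added after seeing the data. The tests were checked on simulated data. Exon lengths and positions came from GENCODE (GRCm38), promoters from RefSeq (GRCm38.p6). Tables were handled with pandas 2.3.3 and numpy 2.4.6.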

Additional observations from a re-analysis of the deposited data

Results flagged for a closer look

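The effect of the Cxcl5-/- label differed between 3D and 2D culture for 4 members, by the edgeR test of the difference itself. The log2 fold change between genotypes, 3D minus 2D, was -4.29 ± 0.52 for Cdkn1a (adjusted p = 6.13e-05), -1.20 ± 0.14 for Cdkn1b (adjusted p = 5.15e-05), -1.13 ± 0.14 for Ccnd1 (adjusted p = 8.21e-05) and -1.05 ± 0.15 for Ccne2 (adjusted p = 0.000256). Cdkn1b also changed direction, with the genotypes at 0.43 in 2D and -0.77 in 3D. In 3D the libraries carrying this label held more Cxcl5 counts than WT. Groups of 2 or 3 samples were not searched for outlying samples.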

How the results depend on the processing

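Of 50 calls of a member in a comparison, 42 kept their direction and their side of the threshold under all alternatives other than the fold limit. Under at least 1 of these, 8 were lost, and 1 reversed, Ccne1 in the libraries labelled Cxcl5-/- 3D against WT with library totals (0.0925). The cause was not tested. With a log2 fold change above 1 required as well, fewer members were left by construction: 3 of 5 for WT 3D against 2D, 0 of 1 for genotypes in 2D, 2 of 7 for genotypes in 3D, 1 of 5 for Hif1a OE and 2 of 6 for Myc OE against Cxcl5-/-, and 1 of 4 each against WT. Without the filter on low counts, 2 members in place of 4 were called in Hif1a OE against WT. With single samples left out, counts of members called ran from 0 to 1 for genotypes in 2D, from 2 to 5 for Hif1a OE against WT, where leaving out either WT sample ended the calls of Ccnd2 and Cdkn1b (adjusted p = 0.149 and 0.232, and 0.213 and 0.225), and moved by at most 2 elsewhere.

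Deviations of same-numbered samples correlated weakly on average (0.037 in the conditioned media, 0.025 in 2D and 3D culture and 0.004 in the rescue table). In the conditioned media, the same-numbered pairs of Ctrl and M0-CM gave 0.359, 0.246 and 0.071. Same-numbered pairs that include an M1-CM sample ran from -0.236 to 0.157. With groups this small, such averages cannot decide whether the numbers pair samples. The replicate block ended only the call of Cdkn1b in Hif1a OE against WT (adjusted p = 0.0825). That call was also lost with DESeq2 (0.278), its size factors (0.326) and library totals (0.622).

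Over all genes, DESeq2 called 97, 17 and 32 genes in the conditioned media where edgeR called 3, 0 and 3, and single samples left out gave 1 to 6 in place of 3 (M1-CM against Ctrl or M0-CM) and up to 2 in place of 0. In the rescue table, leaving out 1 Cxcl5-/- or WT sample moved the calls between them from 12048 to between 7487 and 7908, and leaving out 1 WT sample moved them from 6962 to 3177 or 3196 for Hif1a OE and from 9128 to 4926 or 4954 for Myc OE. Rescue WT and Cxcl5-/- had 2 samples each, and Cdkn2a and Cdkn1c had too few counts for any difference to be read.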

Other observations

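Over the 12 samples of 2D and 3D culture, the gene whose log2 CPM was most like that of a member, among 14443 searched, was Tubb5 for Ccnd1 (Pearson r = 0.998), Cux1 for Ccnd2 (0.966), Tmem131l for Ccnd3 (0.939), Heatr3 for Ccne1 (0.997), Eef1e1 for Ccne2 (0.994), Gja1 for Cdkn1a (0.978), Gpt2 for Cdkn1b (0.963) and A930037H05Rik for Cdkn2b (0.979). The points share their libraries and fall into 4 groups, so these values describe the pattern over groups and carry no test.

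The ratio of Ccne2 to Ccne1 CPM within a sample was 2.45 to 2.98 in 2D, 2.78 to 4.06 in WT 3D, 1.86 to 2.47 in the libraries labelled Cxcl5-/- 3D, 3.98 and 4.15 in rescue WT and 2.07 to 2.34 in rescue Cxcl5-/-. In the overexpressing lines it was 2.48 to 2.52 with Hif1a and 1.48 to 2.77 with Myc, below both rescue WT samples. The conditioned media spheroids, all WT, had 1.89 to 2.46 in Ctrl, 2.31 to 2.65 with M0-CM and 2.01 to 2.49 with M1-CM.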
